A study of Mus musculus with 4 samples.

Results

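The secretory lineage transcription factors described here are 8 genes, Atoh1, Gfi1, Spdef, Creb3l1, Bhlha15, Foxa3, Klf4 and Sox4, found by symbol among the 31053 genes of the count matrices. Their unique molecular identifiers (UMIs, 1 per captured transcript) were summed over the cells of each deposited cell type in each library. The libraries came from living duodenal crypt cells of mice, sorted as positive for TOM, a red fluorescent protein that Cre recombinase switches on, and were made with 10x Genomics 3' v3.1 chemistry. WT mice carried Atoh1CreER-T2 and R26RTom. APC-KO mice also carried Apc fl/fl, floxed alleles of a negative regulator of Wnt signalling, and their sample labels give the driver as Atoh1Cre while the description of the series gives the inducible form for both genotypes. All mice had tamoxifen at 1 mg/mL by injection, 2 doses 24 h apart, and crypts were harvested 12 h later. Each genotype had 2 libraries, and nothing in the labels says that they came from separate animals or gives an age, so p-values measure the spread between these libraries only. Cre was driven from Atoh1, so the sort admitted cells by the past activity of 1 of the 8 genes, and the level of Atoh1 is not independent of that choice.

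Crypt stem cells give rise to absorptive cells and to secretory cells, among them mucus-secreting goblet cells, antimicrobial Paneth cells, hormone-secreting enteroendocrine cells and chemosensory tuft cells. Atoh1 is a basic helix-loop-helix (bHLH) factor that cells need to enter the goblet and Paneth lineages and that Notch signalling represses. Gfi1 is a zinc finger repressor that acts downstream of Atoh1 and holds back endocrine genes, and Spdef is an ETS family factor that promotes goblet and Paneth maturation. Creb3l1 is a membrane-bound bZIP factor cleaved in the Golgi, and Bhlha15, also known as Mist1, is a bHLH factor of cells with a large secretory apparatus. Foxa3 is a forkhead factor of endoderm, Klf4 a Krüppel-like factor linked to goblet cell differentiation, and Sox4 an HMG box factor found in endocrine and tuft progenitors.

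The kept cells numbered 4814 and 3821 in WT libraries 1 and 2 and 356 and 6243 in APC-KO libraries 1 and 2, with medians of 4841.5, 5354, 8370 and 3973 UMIs per cell. APC-KO library 1 held only 5 SEC-PRO and 7 GP cells, so values there rest on few molecules, and results that turn on it are given without it. Library pairs shared between 1 and 8 cell barcodes. The 12 deposited type names are printed unexpanded. Where 4 values follow each other they are in the order WT libraries 1 and 2, APC-KO libraries 1 and 2. Marker lists had their highest summed level in the type of the matching name, that is stem markers in ISC, Paneth markers in PANETH, goblet markers in GOBLET, tuft markers in TUFT, enterocyte markers in ENTERO-PRO and enteroendocrine markers in EC. Markers of immune cells (5 of 5 genes detected) summed to between 1.66 and 7.11 CPM over the libraries, where CPM is UMIs scaled to a total of 1000000 in the cells summed, and those of stromal and endothelial cells (5 of 5) to between 0.953 and 3.99 CPM. The names were made from these cells, so differences between types are described without a test.

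Atoh1 and Bhlha15 are both bHLH factors, a family that binds the letters CANNTG, the E-box. The 250 bases before the start of a gene (RefSeq, GRCm38.p6) were therefore searched for CANNTG, which reads as CANNTG on both strands, and 66.2% of 32851 promoter windows of this length held at least 1 match. Entries were matched for 7 of the 8 genes, all but Creb3l1, with 2 windows for Gfi1. The 4 windows below are those of the reporter's driver and of the genes whose patterns over types are set apart below, read 5′ to 3′ on the gene's strand with each match in capitals.
Atoh1 (chr6:64728875-64729124, plus strand): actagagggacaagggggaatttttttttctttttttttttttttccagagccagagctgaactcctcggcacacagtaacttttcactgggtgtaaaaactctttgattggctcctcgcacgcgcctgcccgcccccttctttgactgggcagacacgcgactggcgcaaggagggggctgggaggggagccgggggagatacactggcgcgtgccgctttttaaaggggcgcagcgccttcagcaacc
Spdef (chr17:27728952-27729201, minus strand): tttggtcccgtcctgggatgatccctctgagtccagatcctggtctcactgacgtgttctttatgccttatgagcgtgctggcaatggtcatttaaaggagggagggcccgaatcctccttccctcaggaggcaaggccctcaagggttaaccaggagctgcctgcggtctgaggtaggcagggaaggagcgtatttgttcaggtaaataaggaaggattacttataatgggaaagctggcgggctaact
Bhlha15 (chr5:144190036-144190285, plus strand): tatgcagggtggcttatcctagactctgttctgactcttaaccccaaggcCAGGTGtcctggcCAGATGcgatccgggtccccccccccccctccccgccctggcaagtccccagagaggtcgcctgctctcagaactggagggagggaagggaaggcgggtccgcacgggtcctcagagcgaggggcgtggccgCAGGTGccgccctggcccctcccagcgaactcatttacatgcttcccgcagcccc
Sox4 (chr13:28953700-28953949, minus strand): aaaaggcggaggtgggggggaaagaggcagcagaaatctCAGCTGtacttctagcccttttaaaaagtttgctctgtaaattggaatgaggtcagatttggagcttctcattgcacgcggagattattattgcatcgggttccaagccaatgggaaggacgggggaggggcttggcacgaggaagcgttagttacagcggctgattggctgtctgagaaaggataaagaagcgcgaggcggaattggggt
The Bhlha15 window held 3 matches, CAGGTG 200 bases, CAGATG 187 bases and CAGGTG 55 bases before the start, counted from the first base of the match. Atoh1 and Spdef had no match in their windows. Sox4 had 1, CAGCTG 211 bases before the start, and this form was in 13.0% of all windows. Klf4 had 2, each Gfi1 window 1 and Foxa3 1. A match of letters describes the window and is not evidence of binding.

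Atoh1 (ENSMUSG00000073043, GRCm38 chromosome 6, 64729125 to 64731245, plus strand) was high in 5 types and low in the remaining 7. In GP it had 170, 176, 313 and 134 CPM, the 313 CPM resting on 15 UMIs. In GOBLET it had 171, 178, 147 and 152 CPM, in PANETH-PRE 169, 183, 177 and 103 CPM, in GOBLET-PRE 146, 139, 137 and 115 CPM, and in SEC-PRO 146, 181, 77.8 and 94.4 CPM, the 77.8 CPM resting on 2 UMIs. These 5 types overlapped each other in the order of means, from 198 ± 78.6 CPM (SD, n = 4) in GP to 125 ± 47.4 CPM in SEC-PRO. The next type, PANETH, at 27.8, 30.9, 27.6 and 60.7 CPM, lay below every library of the 5. ISC had 19.6, 9.22, 0 and 6.85 CPM and EEC-PRE 2.69, 1.80, 0 and 10.5 CPM, where the 0 of APC-KO library 1 allows up to 39.6 and 25.2 CPM, the level of 3 UMIs. Barcodes with 1 to 50 UMIs, taken as a measure of free RNA in the droplets, held Atoh1 at 40.6 to 59.6 CPM, so ISC, EEC-PRE and the other types outside the 5, apart from PANETH in APC-KO library 2, did not exceed the top of that range.

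The share of cells with an Atoh1 UMI was counted with each cell thinned to 2000 UMIs, since depth differed. In GP it was 26.2% (95% exact binomial interval 23.1% to 29.5%) and 27.9% (24.3% to 31.6%) in the WT libraries and 23.7% (19.8% to 28.0%) in APC-KO library 2. In PANETH it was 8.49% to 15.0% in the same libraries. In ISC it was 5.05%, 2.26% and 1.07%, and in EEC-PRE 1.06%, 0% and 0.585%. The GP intervals lay above these shares. Without thinning the GP shares were 51.1%, 54.1% and 35.6% at median depths of 5154, 5302 and 3642 UMIs, and the ISC shares 9.57%, 4.82% and 2.97% at 6249, 6580 and 4515 UMIs. These intervals cover counting error only.

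**Figure D1:**
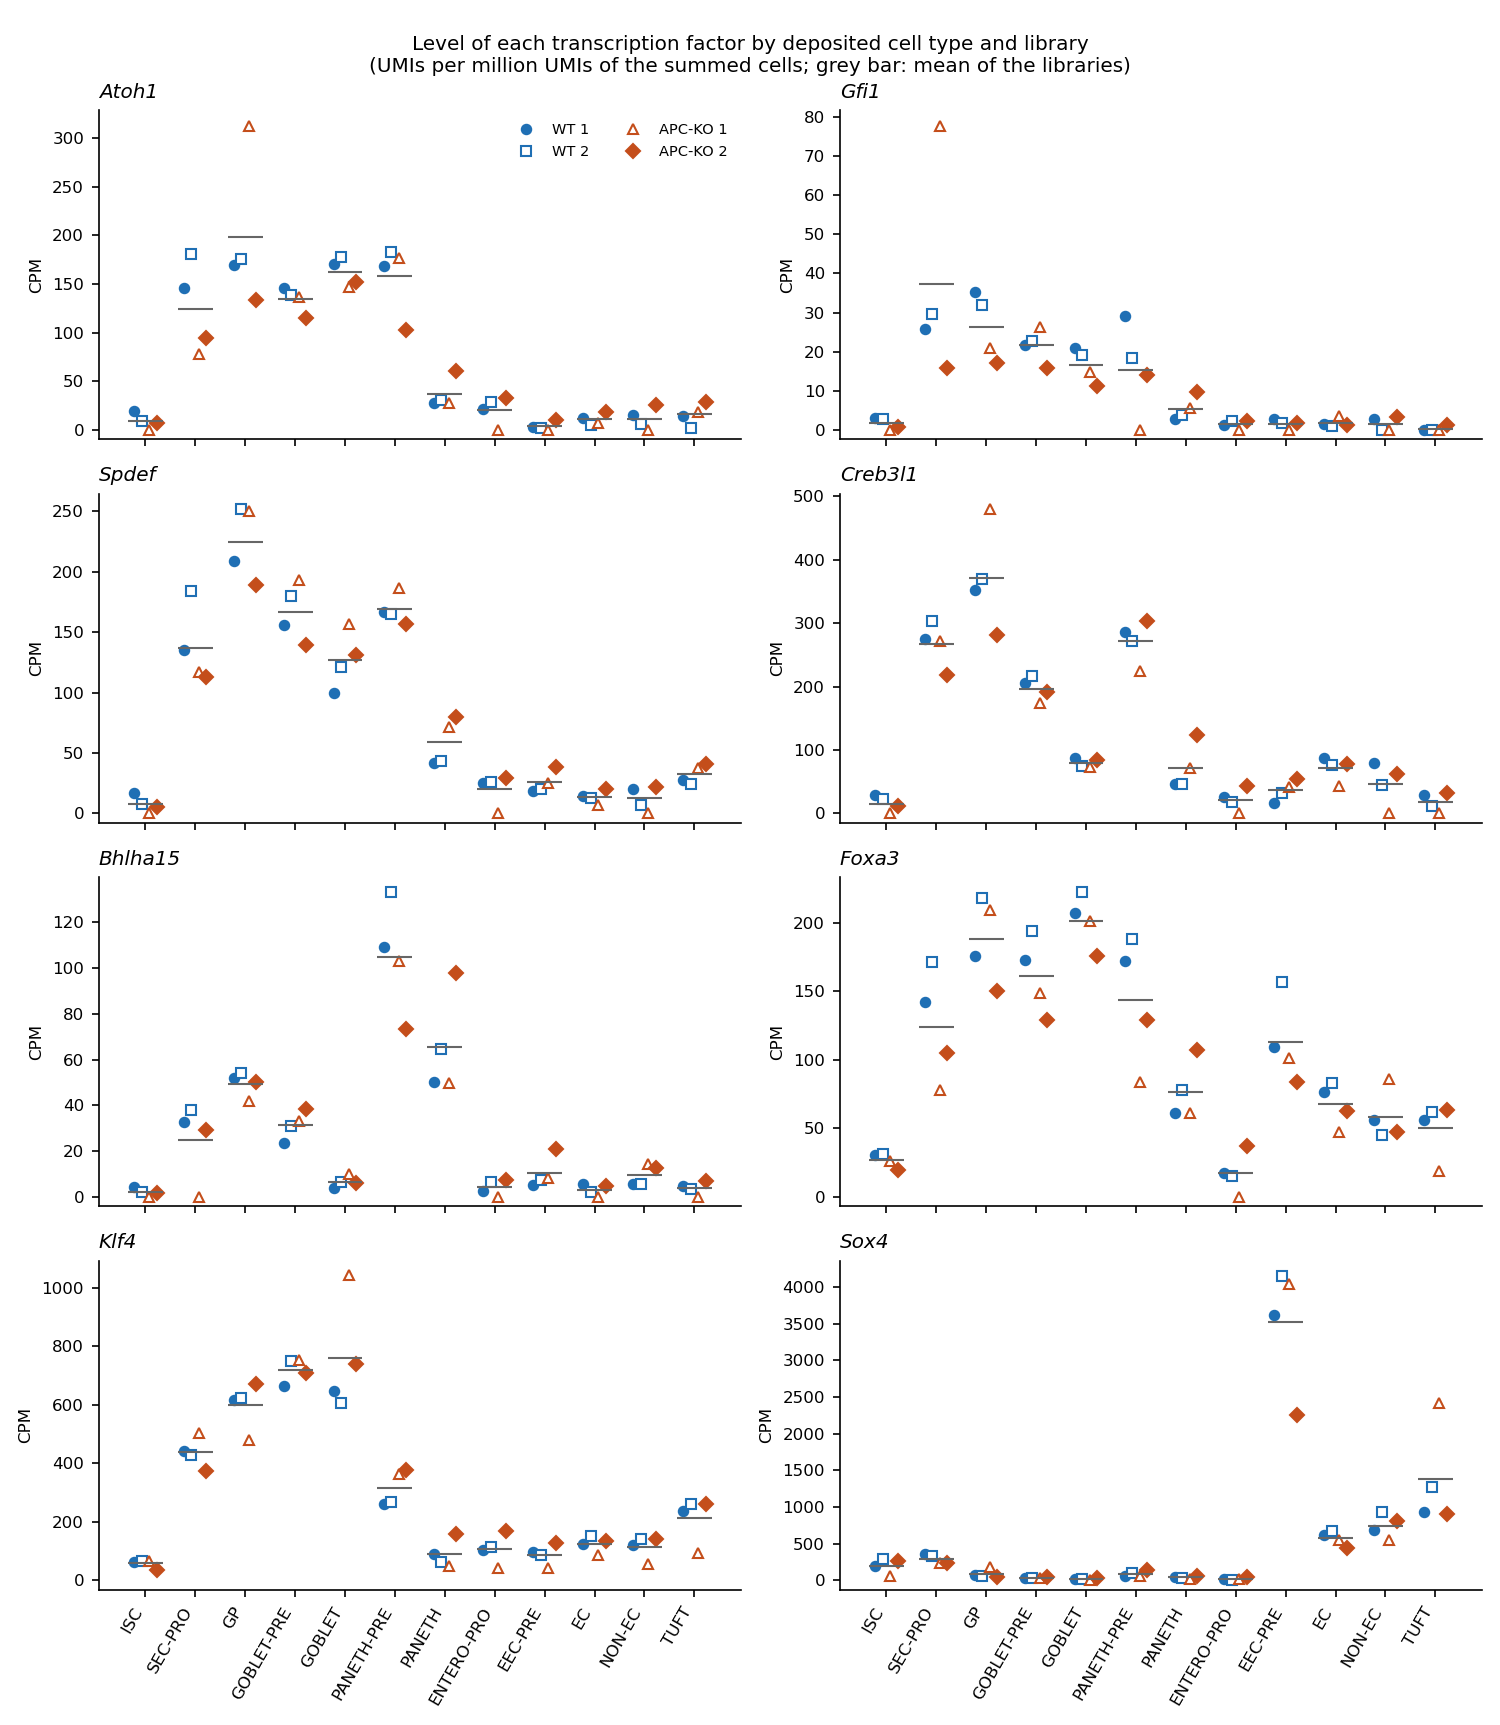
CPM (UMIs per 1000000, y axis, linear, its own range in each panel) of each of the 8 factors in the 12 deposited cell types (x axis). Each point is 1 library (blue WT, orange APC-KO) and each grey bar the mean of the libraries; Atoh1 and Spdef are high in all 5 types from SEC-PRO to PANETH-PRE, Bhlha15 is highest in PANETH-PRE and Sox4 in EEC-PRE.

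Gfi1 (ENSMUSG00000029275, chromosome 5, 107716657 to 107726036, minus strand) was detected in the same 5 types at low counts. It had 25.7, 29.7, 77.8 and 15.7 CPM in SEC-PRO and 35.3, 31.9, 20.9 and 17.2 CPM in GP. The SEC-PRO value of APC-KO library 1 rests on 2 UMIs, and without that library GP had the highest mean, at 28.1 CPM. GOBLET-PRE followed with a mean of 21.6 ± 4.43 CPM (SD, n = 4), GOBLET with 16.5 ± 4.40 and PANETH-PRE with 15.4 ± 12.1, and neighbours in this order overlapped. In PANETH it had 2.71, 3.86, 5.53 and 9.76 CPM. Free RNA held 4.58 to 10.8 CPM, and no PANETH library exceeded the top of that range. In TUFT no UMI was found in 3 libraries and 1 UMI in APC-KO library 2, and the 231 cells of WT library 1 allow up to 3.41 CPM.

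Spdef (ENSMUSG00000024215, chromosome 17, 27714352 to 27728955, minus strand) was the one of the 8 whose libraries in the highest type did not overlap those of the next. In GP it had 209, 252, 250 and 189 CPM, against 167, 165, 187 and 157 CPM in PANETH-PRE, the next by mean. Without APC-KO library 1, which held 8 TUFT cells, the same was true of Sox4. Its lowest EEC-PRE library was then at 2254 CPM and its highest TUFT library at 1277 CPM. The type after that, GOBLET-PRE, had 156, 180, 193 and 139 CPM and did overlap GP. Compared within a library, GOBLET-PRE was at 0.714 to 0.769 of GP. Within each library GP exceeded SEC-PRO by 1.37 to 2.15 times. PANETH, at 42.0, 43.5, 71.8 and 80.2 CPM, was below every library of the 5 high types and above every library of TUFT, which had 27.3, 24.7, 37.9 and 40.6 CPM. Free RNA held 69.4 to 84.6 CPM.

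Creb3l1 (ENSMUSG00000027230, chromosome 2, 91982328 to 92024502, minus strand) was highest in GP too, at 353, 370, 480 and 282 CPM. PANETH-PRE (271 ± 33.8 CPM, SD, n = 4) and SEC-PRO (267 ± 36.1) overlapped it, GOBLET-PRE had 205, 216, 174 and 191 CPM and GOBLET 87.5, 75.0, 73.5 and 83.5 CPM. GOBLET-PRE lay below every library of the 3 higher types and above every library of GOBLET. The ratio of GOBLET to GOBLET-PRE was 0.347 to 0.437 in the 4 libraries. Creb3l1 was also below its precursor in PANETH, at 0.161 to 0.405 of the PANETH-PRE level. Outside these types EC, the type with the highest enteroendocrine markers, had 87.8, 76.9, 43.9 and 77.4 CPM. Free RNA held 74.8 to 131 CPM, and no library of EC, GOBLET or PANETH exceeded that range. PANETH in APC-KO library 2, at 123 CPM, was above the 87.0 CPM of free RNA in its own library.

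Bhlha15 (ENSMUSG00000052271, chromosome 5, 144190286 to 144194441, plus strand) had its highest level in the Paneth types. It had 109, 133, 103 and 73.5 CPM in PANETH-PRE, 50.1, 64.7, 49.7 and 97.6 CPM in PANETH and 41.7 to 54.2 CPM in GP. In GOBLET-PRE it had 23.6, 30.8, 33.1 and 38.4 CPM, below every library of those 3 types, and in GOBLET 3.70, 6.37, 9.79 and 6.11 CPM from 3, 9, 2 and 6 UMIs. PANETH exceeded GOBLET by 5.08 to 16.0 times within a library, and GOBLET was at 0.157 to 0.296 of GOBLET-PRE. The free RNA level was 9.08 to 19.1 CPM. PANETH-PRE was above PANETH in 3 libraries and below it in APC-KO library 2. Defensins and Lyz1, the antimicrobial products of Paneth cells, took 35.8% to 55.8% of the UMIs of PANETH cells against 3.73% to 11.6% in PANETH-PRE, so the same number of molecules per cell gives a lower CPM there. Counted per cell, Bhlha15 had 0.549, 0.592, 1.00 and 0.332 UMIs in PANETH-PRE and 0.698, 0.670, 0.562 and 0.657 UMIs in PANETH, so that PANETH was higher in 3 of 4 libraries, at differing depths. Atoh1, Spdef and Creb3l1 were lower in PANETH than in PANETH-PRE in 4 of 4 libraries by CPM and also per cell.

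Foxa3 (ENSMUSG00000040891, chromosome 7, 19013284 to 19023538, minus strand) was high in the goblet types and extended into EEC-PRE. It had 207, 222, 201 and 176 CPM in GOBLET and was 1.15 to 1.36 times its GOBLET-PRE level there in each library, unlike Spdef, Creb3l1, Gfi1 and Bhlha15, which were lower in GOBLET than in GOBLET-PRE in 4 of 4. Atoh1 was also higher in GOBLET than in GOBLET-PRE in 4 of 4, by 1.07 to 1.32 times. All 12 types overlapped their neighbours in the order of Foxa3 means. These ran from GOBLET (202 ± 19.1 CPM, SD, n = 4) through EEC-PRE (113 ± 31.1) and PANETH (76.8 ± 21.9) to ENTERO-PRO (17.4 ± 15.4). ISC had 30.3, 31.2, 26.4 and 19.4 CPM, and free RNA held 51.8 to 86.0 CPM.

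Klf4 (ENSMUSG00000003032, chromosome 4, 55527143 to 55532466, minus strand) was highest in the goblet types, at 646, 607, 1043 and 740 CPM in GOBLET and 666, 749, 754 and 708 CPM in GOBLET-PRE. These overlapped, and PANETH-PRE was at 0.357 to 0.534 of GOBLET-PRE within a library. In PANETH it had 91.5, 63.8, 49.7 and 157 CPM, at 0.0477 to 0.212 of the GOBLET level, and per cell at 0.0739 to 0.396. Free RNA held 247 to 289 CPM. PANETH, ISC, EEC-PRE, EC, NON-EC and ENTERO-PRO were all below this in each library.

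Sox4 (ENSMUSG00000076431, chromosome 13, 28948919 to 28953713, minus strand) had its highest levels outside the 5 types in which Atoh1 was high. It had 3618, 4149, 4038 and 2254 CPM in EEC-PRE, 932, 1277, 2423 and 900 CPM in TUFT, 690, 925, 543 and 804 CPM in NON-EC and 623, 666, 549 and 447 CPM in EC. SEC-PRO had 354, 335, 233 and 230 CPM, below every library of these 4 types. The EEC-PRE level was 9.82 to 17.3 times that of SEC-PRO within a library, and that of GP 0.179 to 0.805 of it. GOBLET had the lowest mean, at 16.0, 21.9, 9.79 and 30.6 CPM. Free RNA held 105 to 208 CPM, above every library of GOBLET, GOBLET-PRE, PANETH and ENTERO-PRO. No library of GP or PANETH-PRE exceeded the top of that range. With cells thinned to 2000 UMIs, 97.9%, 95.4% and 93.0% of EEC-PRE cells of the WT libraries and APC-KO library 2 had a Sox4 UMI, against 4.91%, 2.96% and 5.88% of GOBLET cells. Gm26735, a model on the opposite strand, overlaps Sox4 and was counted separately. Whether the counting used the strand is not given in the sources used here, and the part of this overlap in the Sox4 counts was not tested.

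**Figure D2:**
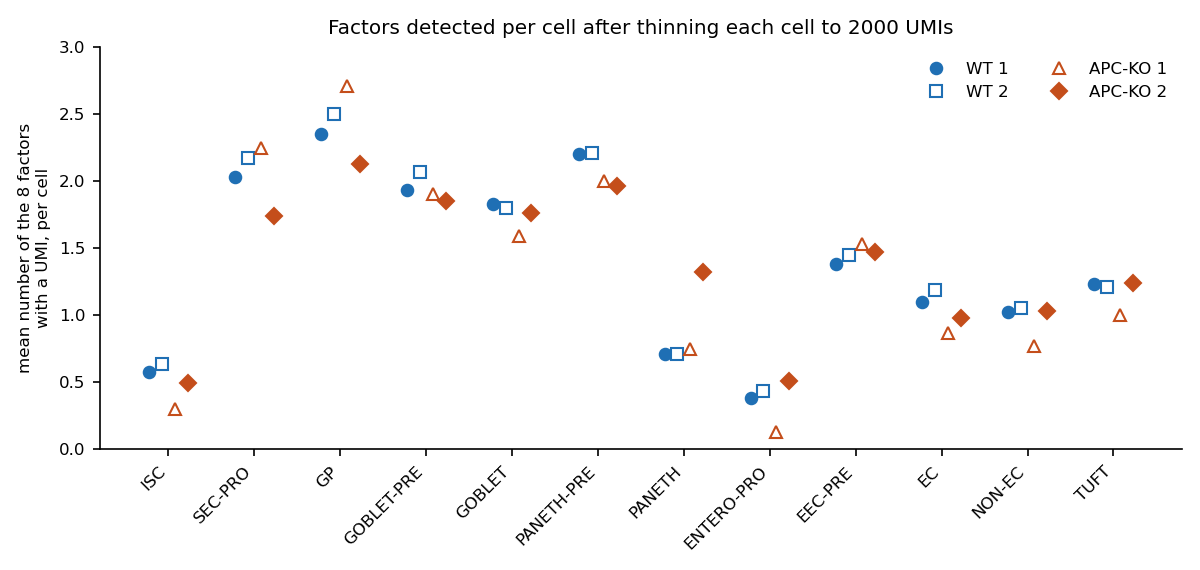
Mean number of the 8 factors with at least 1 UMI per cell (y axis), after thinning each cell to 2000 UMIs, in the 12 deposited types (x axis), 1 point per library. GP cells hold 2.13 to 2.71 factors and ISC cells 0.300 to 0.633.

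Counted together in single cells, more of the 8 were seen on average in GP than in the types around it. A thinned GP cell held 2.35, 2.50, 2.71 and 2.13 of the 8 on average. SEC-PRO cells held 2.03, 2.17, 2.25 and 1.74, PANETH-PRE cells 2.20, 2.21, 2.00 and 1.96, and GOBLET cells 1.83, 1.80, 1.59 and 1.76. Within each library GP was above SEC-PRO, GOBLET-PRE and GOBLET. PANETH cells held 0.708, 0.710, 0.750 and 1.32, where defensins and Lyz1 fill much of the 2000 UMIs. At least 4 of the 8 were seen in 15.1% and 20.2% of thinned GP cells of the WT libraries and in 11.2% in APC-KO library 2. In the same libraries the shares were 17.5%, 12.2% and 10.5% in PANETH-PRE and 10.6%, 12.4% and 5.54% in SEC-PRO. By this count PANETH-PRE was above GP in WT library 1. In ISC cells of the WT libraries the shares were 0.541% and 0.905%.

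Over the 12 types, mean levels on the scale of log2(CPM + 1) were compared by Pearson's r. This is a description, since the types share libraries and free RNA. Atoh1 went with Spdef (r = 0.92, n = 12 types) and Gfi1 (r = 0.91), and Creb3l1 with Gfi1 (r = 0.91), while Sox4 was negative with each of the others, down to -0.67 with Atoh1. Among 5890 other named genes with a mean of at least 20 CPM, the most alike to Atoh1 was Tpsg1 (r = 0.967), to Gfi1 Cracr2b (0.976), and to Spdef Ern2 (0.997), the ER stress sensor of mucous epithelium, and Creb3l4 (0.977). The most alike to Creb3l1 was Cpd (0.955), to Foxa3 Wars (0.921) and to Klf4 Dram2 (0.954). The gene most alike to Bhlha15 was Mmp7 (0.939), the protease that activates Paneth cell defensins in mice, followed by Ccl9 and Rnase1. For Sox4 the most alike were Mex3a (0.992) and Mycl (0.979).

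The genotypes were compared on summed UMIs with edgeR's quasi-likelihood test, with trimmed mean (TMM) scaling and adjustment over all genes tested. Differences are APC-KO minus WT on the log2 scale. In sums, fewer cells of a kind and less RNA per cell cannot be told apart. Over all kept cells 0 of the 8 passed, and so did 0% of 13345 genes, with an unadjusted p under 0.05 for none of the 8 and for 495 genes, or 3.71%. By the DESeq2 Wald test none of the 8 and 23 genes passed. The members' median difference was -0.13, with 6 of 8 lower, beside 0.01 for all genes. Creb3l1 had 173, 185, 136 and 136 CPM and was the 1 member of 8 whose groups did not overlap with APC-KO lower, as in 26% of all genes. Gfi1 had a difference of -0.35 (SE 0.40), and of -0.94 without APC-KO library 1, which leaves 1 APC-KO library.

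In SEC-PRO 0 of the 8 members passed the test, beside 3.57% of 9907 genes, and the fitted difference was below 0 for all 8. By mean CPM the APC-KO libraries were the lower for 6 of them, and not for Gfi1 (27.7 and 46.7 CPM) or Klf4 (437 and 440 CPM). The fit gives APC-KO library 2 most of the weight. Atoh1 had 146, 181, 77.8 and 94.4 CPM, both APC-KO libraries being below both WT libraries. Its difference was -0.72 (SE 0.25, unadjusted p 0.00411, adjusted p 0.0860, edgeR). It was -0.69 without APC-KO library 1, which leaves 1 APC-KO library. On library totals without scaling factors it was -0.80 (adjusted p 0.0184, edgeR). By the DESeq2 Wald test it was -0.85 (adjusted p 1.000). Without APC-KO library 2 it was -1.52, beside a median of -1.66 for all genes, of which 25.4% were higher. Thinned cells with an Atoh1 UMI made up 22.8% (19.3% to 26.6%) and 31.6% (26.9% to 36.5%) of SEC-PRO in WT and 15.5% (13.1% to 18.2%) in APC-KO library 2. Gfi1 had a difference of -0.66 (SE 0.31, adjusted p 0.300, edgeR) and Foxa3 of -0.50 (SE 0.25, adjusted p 0.341, edgeR). For Gfi1 the mean CPM was the higher in APC-KO because of the 2 UMIs of APC-KO library 1. Its difference was 1.04 without APC-KO library 2, where the median of all genes was -1.66. Bhlha15 had 32.6, 37.8, 0 and 29.1 CPM, where the 0 allows up to 117 CPM.

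An unadjusted p under 0.05 was found for 3 of the 8 members in SEC-PRO, Atoh1, Gfi1 and Foxa3, and for 13.2% of all genes. The members' median was -0.46 against -0.02 for all genes, of which 48.1% were higher. The groups did not overlap, with APC-KO lower, in 6 of 8 members and in 31.1% of all genes. The 6 include Bhlha15, through the 0 of APC-KO library 1. They also include Creb3l1, at 272 CPM from 7 UMIs there against 275 CPM in WT library 1. Atoh1, Foxa3, Spdef and Sox4 rested there on 2, 2, 3 and 6 UMIs. Counting error alone allows 9.42 to 281, 9.42 to 281, 24.1 to 341 and 85.6 to 508 CPM. These ranges include both WT values of each gene. APC-KO library 1 therefore cannot decide the overlap for any of the 6, and only the lower values of APC-KO library 2 remain. Stem cell markers (5 genes) summed to 739, 681, 622 and 787 CPM in SEC-PRO, goblet markers (7 genes) to 46772, 38427, 46695 and 45302 CPM, Paneth markers (6 genes) to 4603, 4503, 4471 and 7388 CPM, highest in APC-KO library 2, and enterocyte markers (6 genes) to 73.7, 72.4, 350 and 154 CPM, the highest 2 in APC-KO. The part of these in the result was not tested. The comparison rests on APC-KO library 2, since without it no gene was called, and the DESeq2 Wald test called none.

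**Figure D3:**
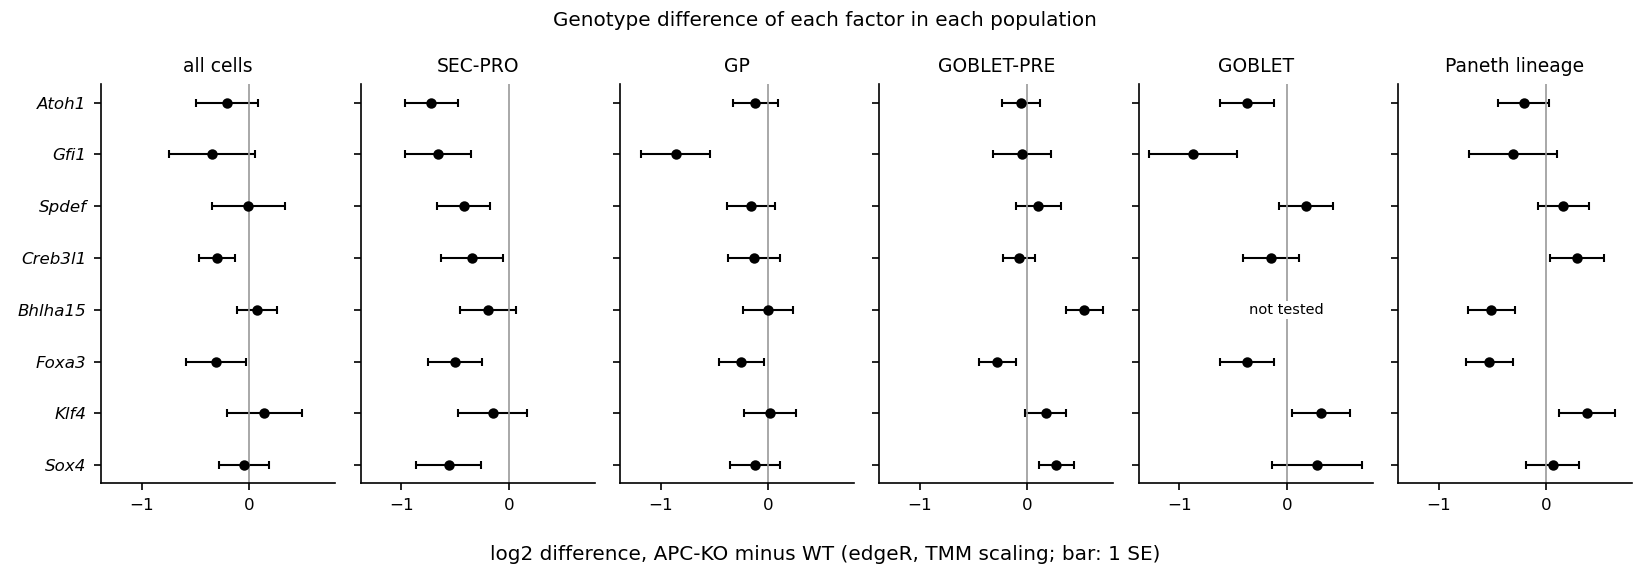
Log2 difference between the genotypes, APC-KO minus WT (x axis), of each factor (y axis) in 6 populations, by edgeR with TMM scaling; bars are 1 standard error. All 8 points lie below 0 in SEC-PRO, with Atoh1 at -0.72, and no point passed the test; Bhlha15 had too few UMIs to be tested in GOBLET.

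Other genes of the pathway in SEC-PRO were read from 4 lists. Of 16 Notch pathway and bHLH partner genes 12 were tested, and Hes1, a Notch target that represses Atoh1, rose, from 35.5 and 35.5 CPM to 38.9 and 70.2 CPM (difference 1.05, SE 0.23, adjusted p 4.5e-04, edgeR). The 38.9 CPM is 1 UMI, and the value was -0.33 without APC-KO library 2, where the median of all genes was -1.66. The list's median was 0.07, with 6 genes higher and 6 lower. Of 11 secretory machinery genes 10 were tested and 9 were lower, with a median of -0.44. Sdf2l1, an ER chaperone partner, fell, from 267 and 300 CPM to 77.8 and 105 CPM (-1.38, SE 0.29, adjusted p 2.6e-04, edgeR). The 77.8 CPM is 2 UMIs. Of 20 other lineage factors 15 were tested and 2 passed. Insm1, a factor of endocrine progenitors, fell, from 15.5 and 30.6 CPM to 0 and 5.14 CPM (-2.02, SE 0.41, adjusted p 8.2e-05, edgeR). Hnf4g, of enterocytes, rose, from 24.7 and 19.8 CPM to 0 and 39.1 CPM (0.86, SE 0.27, adjusted p 0.0389, edgeR). For both genes the 0 of APC-KO library 1 allows up to 117 CPM, above both WT values. None of the 4 was called by the DESeq2 Wald test or without APC-KO library 2, and Hnf4g was not called on library totals (0.78) or with free RNA subtracted (0.89). With cells thinned to 2000 UMIs Hes1 (0.82, adjusted p 0.358, edgeR) and Hnf4g (0.36, adjusted p 0.904, edgeR) lost their calls, while Sdf2l1 and Insm1 kept theirs. Without WT library 1 Hes1 (1.02), Sdf2l1 and Hnf4g lost their calls, and all 4 did without WT library 2. Of 10 goblet products and enzymes none passed, with 5 higher and 5 lower.

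In GP 2.87% of 9362 genes were called and 0 of the 8 members. Gfi1 had 35.3, 31.9, 20.9 and 17.2 CPM, the 20.9 CPM being 1 UMI, and it was the 1 member with an unadjusted p under 0.05, beside 12.3% of genes. The groups did not overlap with APC-KO lower, which held for 2 of the 8 members, Gfi1 and Bhlha15, each resting on 1 or 2 UMIs in APC-KO library 1, and for 31.2% of all genes. The difference of Gfi1 was -0.86 (SE 0.32, adjusted p 0.144, edgeR). Spdef (-0.16, SE 0.22), Creb3l1 (-0.13, SE 0.24), Atoh1 (-0.12, SE 0.21) and Klf4 (0.02, SE 0.24) differed by less than 1 SE. The members' median fitted difference was -0.12, with 7 of 8 below 0, Bhlha15 at -0.00 among them, beside -0.02 for all genes. The means of CPM ran the other way for Atoh1 (173 in WT and 224 in APC-KO), Creb3l1 (362 and 381), Sox4 (65.2 and 119) and Klf4 (621 and 575). This came from APC-KO library 1, at 313, 480, 188 and 480 CPM from 15, 23, 9 and 23 UMIs. In APC-KO library 2 Atoh1, Creb3l1 and Sox4, at 134, 282 and 50.6 CPM, were below both WT libraries. Klf4, at 670 CPM there, was above both. Sdf2l1 fell in GP too, from 287 and 314 CPM to 188 and 159 CPM (-0.81, SE 0.23, adjusted p 0.0195, edgeR), as did Clca1, a goblet product, from 1281 and 2094 CPM to 250 and 1207 CPM (-0.90, SE 0.26, adjusted p 0.0199, edgeR). The call of Clca1 rests on APC-KO library 1, without which it was -0.37, and it was not made without either WT library (-1.26 and -0.64). That of Sdf2l1 was not made without APC-KO library 2, WT library 1 or WT library 2. Its value was -0.84 without WT library 1 and -0.79 without WT library 2. Without APC-KO library 2 it was -0.86, where the median of all genes was -0.80. Neither was called by the DESeq2 Wald test (adjusted p 1.000 for both) or with cells thinned to 2000 UMIs (edgeR adjusted p 0.643 for Clca1 and 0.330 for Sdf2l1).

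In GOBLET-PRE 0.00974% of 10272 genes were called and none of the 8, and in GOBLET 0.0837% of 5974 genes and none of the 7 tested. An unadjusted p under 0.05 was found for 1 of 8 members and 817 genes (7.95%) in the first and for 0 of 7 and 669 genes (11.2%) in the second. No member passed the DESeq2 Wald test in either. In GOBLET-PRE Bhlha15 had 23.6, 30.8, 33.1 and 38.4 CPM, a difference of 0.53 (SE 0.17, unadjusted p 0.0174, adjusted p 0.594, edgeR). The groups did not overlap with APC-KO higher in 2 members, Bhlha15 and Sox4, and 11.2% of genes, and with APC-KO lower in 3, Atoh1, Creb3l1 and Foxa3, and 30.6% of genes. In GOBLET Spdef and Klf4 were the 2 higher members without overlap, beside 29.5% of genes, and Atoh1, Gfi1 and Foxa3 the 3 lower, beside 14.4%. Medians in GOBLET-PRE and GOBLET were 0.03 and -0.15 for the members, beside -0.00 and 0.01 for all genes.

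In the Paneth lineage, PANETH-PRE and PANETH cells summed, 0.663% of 8599 genes were called and none of the 8. Foxa3 had 93.7, 97.3, 69.4 and 120 CPM, with overlap of the groups, and a difference of -0.53 (SE 0.22, adjusted p 0.281, edgeR). Bhlha15 had 67.4, 76.6, 69.4 and 83.2 CPM, also overlapping, and a difference of -0.51 (SE 0.22, adjusted p 0.310, edgeR). These were the 2 members with an unadjusted p under 0.05, beside 14.8% of genes. By CPM, 4 members, Atoh1, Spdef, Creb3l1 and Klf4, were higher in both APC-KO libraries than in both WT libraries, as were 48.5% of all genes. These signs depend on the scale. TMM scaling centres the genes, and on library totals alone the median of all genes was 0.68, all 8 members were higher, and Bhlha15 was at 0.12 and Foxa3 at 0.07. Defensins and Lyz1 took 42.8% and 43.6% of the UMIs of this lineage in WT and 33.5% and 16.7% in APC-KO. PANETH-PRE made up 53.5% and 32.9% of its cells in WT and 40.7% and 68.7% in APC-KO.

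The last comparison asked whether the genotype difference was the same in the Paneth lineage as in the goblet lineage, GOBLET-PRE and GOBLET summed. Of 10265 genes 2.26% were called, 1.52% with a lower value, and of the 8 members 1 was, Bhlha15, with a lower value. An unadjusted p under 0.05 was found for 2 members and 12% of genes. Bhlha15 UMIs in the goblet lineage were 160 and 224 in WT and 61 and 180 in APC-KO, or 17.7, 21.2, 26.5 and 27.4 CPM after TMM scaling. In the Paneth lineage they were 141, 192, 20 and 380, or 99.1, 112, 82.8 and 69.2 scaled CPM. On this scale both APC-KO libraries were above both WT libraries in the goblet lineage and below both in the Paneth lineage. The Paneth minus goblet difference of the genotype differences was -1.06 (SE 0.21, adjusted p 5.8e-04, edgeR), a Paneth to goblet ratio 2.08-fold lower in APC-KO. Among the genes tested it had rank 56 by p.

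The size of this value moved with the processing. With cells thinned to 2000 UMIs it was -1.66 (adjusted p 2.0e-04, edgeR). It was -0.76 (SE 0.23, adjusted p 0.0240, edgeR) on library totals counted without defensins and Lyz1, where the median of all genes was 0.29. On library totals it was -0.28 (SE 0.33, adjusted p 0.484, edgeR), where the median of all genes was 0.77. The direction was the same in each. With precursor cells only (PANETH-PRE against GOBLET-PRE) it was -1.32 (adjusted p 0.00143, edgeR), and with mature cells only (PANETH against GOBLET) it was -0.31 (SE 0.73, adjusted p 0.984, edgeR), where the goblet sums held 3, 9, 2 and 6 UMIs. The call did not hold by the DESeq2 Wald test (-1.01, adjusted p 0.291) nor without WT library 1 (-0.99), WT library 2 (-1.08) or APC-KO library 2 (-0.77, adjusted p 0.494, edgeR). Without APC-KO library 1, which leaves 1 APC-KO library, it was -1.09 and the call held.

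**Figure D4:**
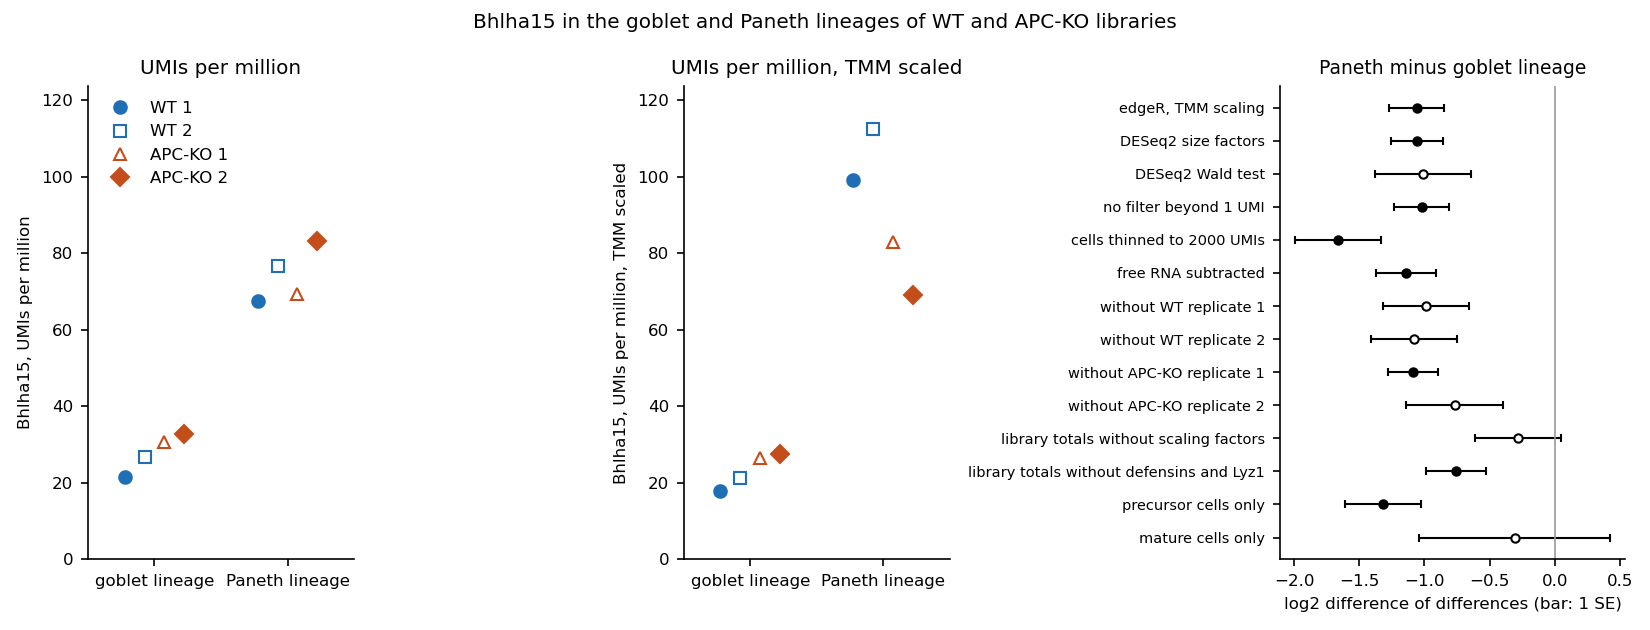
Bhlha15 in the goblet and Paneth lineage sums of each library, as CPM (left) and after TMM scaling (middle), and the Paneth minus goblet difference of the genotype differences on the log2 scale (right, 1 standard error) under each setting, filled where the adjusted p was under 0.05. On the TMM scale the APC-KO libraries sit at 82.8 and 69.2 in the Paneth lineage, under the WT libraries at 99.1 and 112, while on library totals the groups overlap there.

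In PANETH-PRE cells the goblet markers summed to 84692, 53759, 106171 and 74958 CPM. The Paneth markers (6 genes) summed to 130252, 110888, 97636 and 41344 CPM, lower in both APC-KO libraries, and the stem markers to 575, 542, 373 and 1183 CPM. In PANETH cells the goblet markers were at 30173, 18873, 30838 and 76984 CPM. The part of these differences in the result was not tested. The other 7 members had values between -0.21 and 0.42 in the same test, of which Creb3l1 (0.42, SE 0.18, adjusted p 0.276, edgeR) was past the threshold on library totals, at 1.07 (adjusted p 0.0237, edgeR), and without defensins and Lyz1, at 0.68 (adjusted p 0.0316, edgeR). The members' median was -0.01, beside -0.00 for all genes.

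In the same test 5 of 12 tested Notch and bHLH partner genes passed, 3 higher and 2 lower. Id2 (1.29, SE 0.29, adjusted p 0.00493, edgeR) and Id3 (1.00, SE 0.23, adjusted p 0.00653, edgeR), which code for inhibitors that bind bHLH partners without binding DNA, rose in the Paneth to goblet ratio. Tcf4, which codes for a bHLH partner of the E protein family, fell (-0.94, SE 0.27, adjusted p 0.0412, edgeR). The remaining 2, outside the rule of 3 per list and named after their values were seen, were Id1 (0.92) and Tcf12 (-0.85), also an E protein gene. Of goblet products, 2 of 10 passed, Zg16 (1.86, SE 0.38, adjusted p 0.00113, edgeR) and Clca1 (1.27, SE 0.29, adjusted p 0.00431, edgeR), both higher, and of secretory machinery 1 of 10, Rab3d, a GTPase of secretory granules (-0.68, SE 0.17, adjusted p 0.0159, edgeR). Of 14 other lineage factors Sox9, which Paneth cells need, passed (-0.73, SE 0.17, adjusted p 0.00630, edgeR). Apart from Tcf12 (-1.28), none of these 9 kept its call without APC-KO library 2, where Id2 was at -0.10. Id1 turned sign without APC-KO library 2, to -0.83. On library totals the 3 Id genes and the 2 goblet products passed, while Tcf4 (-0.11), Tcf12 (-0.19), Rab3d (-0.02) and Sox9 (-0.03) did not. Without WT library 1 only Zg16 and without WT library 2 only Zg16 and Clca1 kept their calls among the 9. By the DESeq2 Wald test only Clca1 (adjusted p 0.0475) was called, with no adjusted p for Id2 and Tcf4, and with thinned cells only Clca1 (1.61) and Zg16 (2.41) were. Tcf4, Tcf12, Rab3d and Sox9 were not called on totals without defensins and Lyz1, and Tcf4 was not with free RNA subtracted or without the filter. With precursors only Tcf12, Clca1 and Zg16 were called, and with mature cells only Id2. Subtraction of free RNA moved Zg16 to 6.15, Clca1 to 2.49, Id3 to 1.94 and Id1 to 1.67.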

How the data were processed

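Single-cell UMI counts per gene and cell barcode of 4 libraries were analysed; they are the authors' deposited counts, made with Cell Ranger 3.0.2 and STAR on mm10 per the submitters' processing notes. Metadata deposited by the authors gave each kept cell its type and library, and also its mitochondrial percent, which was not used. How the authors removed doublets, filtered cells and named types is not given in the sources used here, and no doublet caller was run. The 8 genes, the gene lists and the tests were chosen with earlier results of these data known, and they support no independent claim. Genes of the lists are named when past the threshold, at most 3 per list and comparison with the largest fold.

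Counts were summed per type and library. CPM (counts per 1000000) scale a gene's UMIs to the UMIs of the sum and are a share, so that 1 abundant product lowers all others. Sums of the libraries differ, from 3009636 UMIs in 356 cells to 27285079 in 6243. Genotypes were compared with edgeR 4.0.16 (quasi-likelihood F-test, TMM, filterByExpr, R 4.3.3), Benjamini-Hochberg adjusted over all genes tested, with a threshold of 0.05. The lineage comparison used 1 sum per lineage and library with library as a block. For shares of cells, each cell was thinned to 2000 UMIs and shallower cells were left out, with 95% exact binomial intervals, which cover counting error only. A count of 0 was given the level of 3 counts as its limit. Alternatives were DESeq2 1.42.0 (size factors and Wald test), no filter beyond 1 UMI, thinned cells, subtraction of free RNA (5% of each sum), a replicate block and leaving out each library. Library totals, totals without defensins and Lyz1, and precursor or mature cells only were chosen after seeing the data. Tested on simulated counts in which 200 genes had a log2 change of 2, the SEC-PRO comparison of 9907 genes called 198 of them, and the lineage comparison of 10265 genes called 182. The changed genes were drawn only from those above a minimum mean count. The simulation therefore does not show how often smaller changes, or changes of genes with few UMIs, are called. Gene positions were taken from GENCODE vM21, which held 30934 of the 31053 gene IDs, and promoters from RefSeq.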

Additional observations from a re-analysis of the deposited data

Results flagged for a closer look

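Bhlha15 was picked out because its genotype difference was not the same in both secretory lineages by a test of that difference. The value, APC-KO minus WT in the Paneth lineage minus the same in the goblet lineage, was -1.06 on the log2 scale (SE 0.21, adjusted p 5.8e-04, edgeR). On the TMM scale both APC-KO libraries were higher than both WT libraries in the goblet lineage and lower in the Paneth lineage. No group had the 4 samples that a search for outlying libraries needs.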

How the results depend on the processing

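Bhlha15 kept its negative sign in the lineage comparison under all 13 alternatives. It did not pass by the DESeq2 Wald test (-1.01), on library totals (-0.28) or with mature cells only (-0.31), and ranged from -1.09 to -0.77 with 1 library left out, where it passed only without APC-KO library 1. The cause was not tested. Of 641 member values under an alternative, 79 had the other sign. For 66 of these the value in the main fit, edgeR with TMM scaling, was smaller than its SE. For 13 the main value exceeded its SE, and their values under the alternative are given here. Foxa3 over all cells (-0.66 to 0.03 with 1 library left out) and Gfi1 in SEC-PRO (-0.74 to 1.04) turned sign without APC-KO library 2. In that SEC-PRO fit the median of all genes was -1.66. Creb3l1 turned with precursors only in the Paneth lineage (-0.06) and the lineage comparison (-0.03), and Klf4 with mature cells only (-0.05). On library totals Bhlha15 (0.12) and Foxa3 (0.07) turned in the Paneth lineage. In the lineage comparison Foxa3 turned on library totals (0.47), without defensins and Lyz1 (0.08) and with mature cells only (0.13). Sox4 turned there on library totals (0.48), without defensins and Lyz1 (0.07) and with precursors only (0.24).

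Counts of genes called moved more than the members did. With the DESeq2 Wald test they were 23 over all cells, 0 in SEC-PRO, 2 in GP, 38 in GOBLET-PRE and 36 in the lineage comparison. With no filter beyond 1 UMI they were 21 over all cells, 280 in GOBLET-PRE, 79 in GOBLET and 477 in the Paneth lineage. Thinned cells gave 99 in SEC-PRO, 87 in GP, 4 in GOBLET-PRE, 3 in GOBLET and 46 in the lineage comparison, and free RNA subtraction 0 in GOBLET-PRE, 3 in GOBLET and 124 in the Paneth lineage. Library totals gave 3 in GOBLET-PRE, 575 in the Paneth lineage and 2372 in the lineage comparison, and totals without defensins and Lyz1 97 and 510 in the latter pair. Precursors only gave 91 in the lineage comparison, and mature cells only 49 there and 98 in the Paneth lineage. On library totals the split of higher to lower calls went from 247 and 107 to 221 and 227 in SEC-PRO, from 167 and 102 to 126 and 136 in GP, from 1 and 0 to 1 and 2 in GOBLET-PRE, from 21 and 36 to 538 and 37 in the Paneth lineage, and from 76 and 156 to 2339 and 33 in the lineage comparison. With 1 library left out the counts ran from 0 to 483 over all cells, 0 to 638 in SEC-PRO, 29 to 612 in GP, 7 to 64 in GOBLET-PRE, 0 to 21 in GOBLET, 0 to 461 in the Paneth lineage and 58 to 364 in the lineage comparison. The highest count came without APC-KO library 1 in all but GOBLET-PRE, where it came without WT library 1. An arm of 1 library is assumed there to vary like the other.

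Replicate numbers pair nothing in the labels, and deviations of same-numbered libraries correlated at -0.313 over 13345 genes. With the replicate block the counts were 4 over all cells, 96 in SEC-PRO, 76 in GP, 110 in GOBLET-PRE, 73 in GOBLET and 124 in the Paneth lineage. With the numbers crossed in the replicate block they were 1 over all cells, 72 in SEC-PRO, 93 in GP, 1 in GOBLET-PRE, 2 in GOBLET and 49 in the Paneth lineage.

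Depth limits the SEC-PRO and GP comparisons, where APC-KO library 1 held 25720 and 47953 UMIs. Gfi1 rested there on 1 or 2 UMIs.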
